A study of Mus musculus with 2 samples.

Results

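The genes described here encode 10 proteins of blood coagulation and fibrinolysis that leukocytes of the monocyte lineage are known to make or to respond to: the transglutaminase subunit F13a1, tissue factor F3, the coagulation factors F5, F7 and F10, the anticoagulants Thbd and Tfpi, and Plau, Plaur and Serpinb2 of plasminogen activation. They were chosen by symbol, as genes named alone by a probe set in the array's platform annotation, and with their values on these arrays already known. All 10 were found, among 19935 genes measured, each on 1 probe set. Marrow mononuclear cells from outbred ddY mice aged 6 weeks had been separated on a density gradient and stained for RANK and c-Fms, which bind the osteoclast cytokines RANKL and M-CSF respectively. Flow cytometry then yielded RANKhigh c-Fmslow and RANKlow c-Fmshigh cells, called RANKhigh cells and c-Fmshigh cells below, and each population was measured on 1 array. Nothing but the gate separates the groups by the labels, and the number of mice behind each array is not stated in them. The sort was on surface stain only, so each array is a mixture of whatever cells met its gate.

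Coagulation starts when tissue factor on a cell surface binds factor VII, and the complex activates factor X. Factor Xa, with factor V as cofactor, makes thrombin, which turns fibrinogen into fibrin. Activated factor XIII then cross-links the fibrin. Thrombomodulin (Thbd) and tissue factor pathway inhibitor (Tfpi) hold this cascade back. Urokinase (Plau), bound to its receptor (Plaur), activates plasminogen to the protease that dissolves fibrin, and plasminogen activator inhibitor 2 (Serpinb2) inhibits urokinase. Most clotting factors of plasma come from the liver, whereas monocytes and macrophages, as well as megakaryocytes, are known sources of factor XIII A.

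Values are probe set intensities on a linear scale, and a difference is the log2 intensity in RANKhigh cells minus that in c-Fmshigh cells. With 1 array per population no replicate error can be had, no test or p-value is given, and every difference is a description of these 2 arrays. In a bulk sample, fewer cells of a type and less RNA per cell cannot be told apart. As a guide to background, the 95th percentile of 1189 olfactory and vomeronasal receptor genes was 83.8 in RANKhigh cells and 81.8 in c-Fmshigh cells. A gene counted as apart when it differed at least 2-fold and the brighter of its values was no less than 93.6, the overall median. Of the sort markers, Csf1r, which encodes c-Fms, stood at 164 against 821, as labelled. The RANK gene Tnfrsf11a stood at 104 in RANKhigh cells and 119 in the other population (log2 difference -0.20). Both values were near background, below the 99th percentile of the same receptor genes (140 and 120). The gap was close to 0.19, the median disagreement between 2 probe sets of a gene, so no direction is given for Tnfrsf11a. The name RANKhigh refers to the stain and not to the transcript.

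Of the 10 genes, F13a1 and F10 were at least 2-fold lower in RANKhigh cells, and 0 were at least 2-fold higher with a value above the level filter. Over all 11089 genes that passed that filter, 4.26% were lower by this measure and 4.34% higher. Without the filter these shares were 2.38% and 2.44% of 19935 genes. Because the genes were chosen with this contrast known, nothing is read from their share. The log2 differences of all 10 genes ran from -3.01 to just over 1 around a median of -0.30, beside a median of 0.01 over all genes, with 7 below 0 and 3 above. Of the 10 genes, 7 passed the level filter. The 3 that did not, F3, F7 and Serpinb2, lay below the receptor-gene guide on both arrays.

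**Figure D1:**
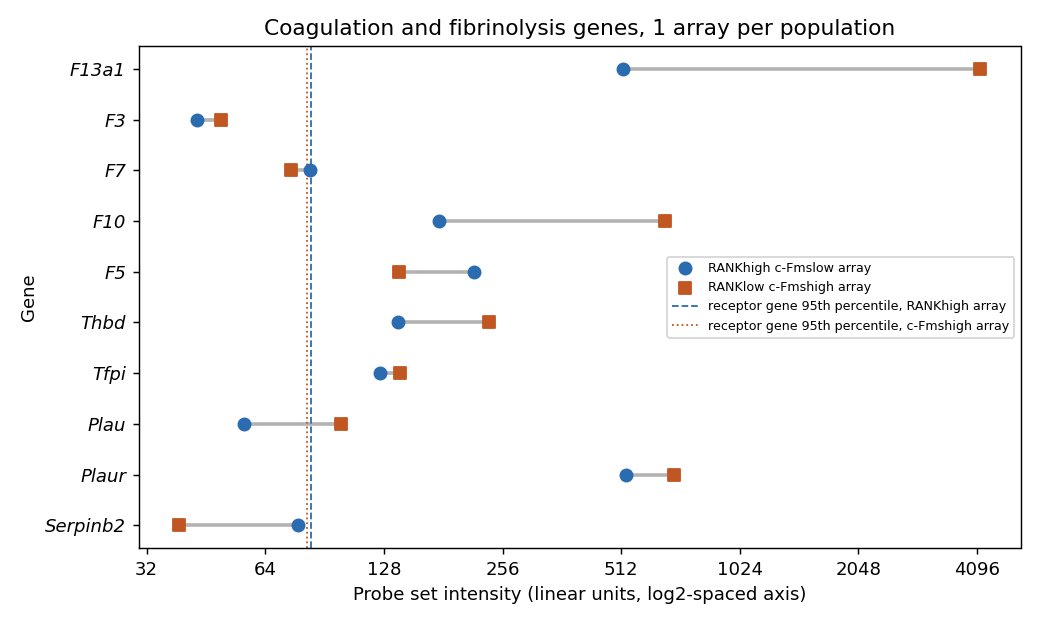
Probe set intensity (linear units on a log2-spaced axis) of the 10 genes on the RANKhigh c-Fmslow array (blue circles) and the RANKlow c-Fmshigh array (orange squares), 1 array each, joined by a grey line. Dashed and dotted vertical lines mark the 95th percentile of receptor genes on each array (83.8 and 81.8). F13a1 (517 against 4177) and F10 (176 against 663) are spread widest, F5 lies the other way, and F3, F7 and Serpinb2 lie left of each array's own line.

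F13a1 encodes the catalytic A subunit of factor XIII, the transglutaminase that cross-links fibrin. Its intensity was 517 in RANKhigh cells and 4177 in c-Fmshigh cells, 8.08-fold apart (log2 difference -3.01). Both values were far above the receptor-gene guide. Among the 11089 filtered genes it had the lowest log2 difference but 1 (rank 2 from the most negative). The B subunit gene F13b, which liver cells express, stood at 28.4 and 27.0, below the guide on both arrays, so that detection can be stated for the A subunit only.

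The 5 genes nearest to F13a1, by distance in the log2 intensities over these 2 arrays, were Fn1, Ccr2, Anxa5, Ms4a6c and Il6st. Likeness here rests on 2 values a gene and also on how bright each probe set is. Fn1, encoding fibronectin, which factor XIII is known to cross-link to fibrin, was nearest at a distance of 0.35 (661 against 4187). Ccr2, a chemokine receptor of monocytes, followed at 0.64 and Anxa5, a phosphatidylserine-binding annexin, at 0.69 (744 against 3075). The last of the set, Il6st, lay at 0.85. Of the genes next to F13a1 in the RefSeq gene order, Ly86, a partner of the Toll-like receptor homologue RP105, was also lower in RANKhigh cells (855 against 1997, log2 difference -1.22), and Nrn1 on the other side was below the guide on both arrays (42.8 and 39.2).

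F10, the zymogen of the protease that makes thrombin, was the other gene at least 2-fold apart. It stood at 176 in RANKhigh cells and 663 in c-Fmshigh cells, a 3.76-fold difference (log2 difference -1.91, rank 62 from the most negative). Both values were above the guide. F10 lies between F7 and Proz in the RefSeq gene order, and of the 3 only F10 was above the guide. F7, the protease that tissue factor binds, stood at 83.2 and 74.4, and Proz, protein Z, at 71.4 and 75.4, all below the guide. Nearby on the same chromosome, Lamp1, a lysosome membrane protein, was 598 against 1759 and Atp11a, a phospholipid flippase, 83.8 against 183, while Mcf2l stood at 117 and 118 and Pcid2 at 199 and 195. Tubgcp3 stood at 390.3 against 524, and Cul4a went the other way at 416 against 225 (log2 difference 0.89).

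The promoters of F13a1 and F10 are shown because these were the members at least 2-fold lower in RANKhigh cells. Each line gives the 250 bases before a RefSeq start site on GRCm38.p6, 5′ to 3′ on the gene's strand. F13a1 has another listed start site further upstream, not shown. The last line gives 30 bases beyond the F13a1 start site printed here, with the motif GAGGAAGT, a form of the PU.1 site, in capitals. Both strands were searched. The C/EBP motif was written as TTGCNNAA. The AP-1 motif was written as TGANTCA. The TATA box was written as TATAAA. The E-box was written as CACGTG. None of the 5 motifs was in the F10 window or in either set of upstream bases of F13a1.
F13a1 upstream, chr13:37049214-37049463, minus strand: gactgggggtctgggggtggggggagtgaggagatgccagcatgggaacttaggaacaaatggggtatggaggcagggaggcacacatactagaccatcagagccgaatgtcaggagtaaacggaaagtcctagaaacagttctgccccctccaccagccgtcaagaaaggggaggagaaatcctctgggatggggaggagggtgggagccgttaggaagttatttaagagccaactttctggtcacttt
F10 upstream, chr8:13037058-13037307, plus strand: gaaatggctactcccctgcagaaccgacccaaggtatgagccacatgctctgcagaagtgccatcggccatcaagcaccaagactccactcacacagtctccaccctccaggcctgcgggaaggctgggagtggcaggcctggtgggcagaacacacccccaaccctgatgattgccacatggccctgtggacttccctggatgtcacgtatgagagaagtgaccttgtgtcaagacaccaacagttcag
F13a1 downstream of the start site, chr13:37049181-37049210, minus strand: cgagtccttttGAGGAAGTacccagaggca

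Promoter windows of 300 bases (250 before to 50 after the start) were listed for 8 of the 10 genes, 11 windows in all. Thbd and Plau had none in the table. GAGGAAGT was in 1 of the 11 member windows, that of F13a1, beginning at base 15 counted from the start site as 1, and in 3.20% of the 32851 mouse windows. TGANTCA was in 4 of the 11, those of F3, Plaur and Serpinb2, and in 7.81% of all windows. TTGCNNAA was in 3 windows, of Plaur and Serpinb2, against 10.8% of all. The letters TATAAA were in 4, of F3, Serpinb2 and Tfpi, against 13.6%, and the E-box in 1, of Tfpi, against 7.15%. The TATAAA match of F3 was on the reverse strand at base 44, past the start site, and that of Tfpi on the reverse strand at base -127. That of Serpinb2 was forward, at base -29 from 1 of its start sites. The 2 windows of Serpinb2 overlap and share motifs. A match is a description of letters and shows no binding. The AP-1 motifs of F3 and Plaur are shown because their genes had unlike levels on the arrays, F3 below the guide on both and Plaur above it on both.
F3, chr3:121723380-121723409, plus strand: cgcggcgctgtTGAATCAcggttgagtcac
F3, chr3:121723391-121723420, plus strand: tgaatcacggtTGAGTCAcccctttcgggg
Plaur, chr7:24462403-24462432, plus strand: acccctggagcTGACTCActctttagcaaa
The F3 lines overlap and hold neighbouring motifs, beginning at bases -146 and -135 from the start site, and the Plaur motif begins at base -69.

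The genes that start the cascade gave little signal. F3, tissue factor, stood at 43.1 in RANKhigh cells and 49.4 in c-Fmshigh cells. Both values lay well below the receptor-gene guide, and with F7 (83.2 and 74.4) also below it, nothing can be said of the level or direction of the initiating complex. F10, its substrate, was the only member of this group above the guide. F5, the cofactor of factor Xa, was the only member above the level filter that was higher in RANKhigh cells, at 216 against 140 (1.54-fold, log2 difference 0.62). It ranked 1057 from the most positive of the 11089 genes.

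Megakaryocytes and platelets are a known source of F5 and also of F13a1, and the 8 measured markers of that lineage had a median log2 difference of 0.26. Of these, 1 was at least 2-fold higher in RANKhigh cells, the platelet factor gene Pf4 (959 against 283), and 0 were at least 2-fold lower. Their summed intensity was 2430 in RANKhigh cells and 1445 in c-Fmshigh cells. The list was divided, with 5 markers above 0 and 3 below, among them the integrin gene Itgb3 at 131 against 209. Pf4 and Ppbp (696 against 420) made up most of the sum in RANKhigh cells. Which cells carried either transcript was not tested.

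The anticoagulant genes were above the guide on both arrays and differed less than 2-fold. Thbd, thrombomodulin, which turns thrombin towards activating protein C, stood at 139 in RANKhigh cells and 237 in c-Fmshigh cells (1.71-fold, log2 difference -0.77). Tfpi, the inhibitor of the tissue factor complex and of factor Xa, stood at 125 and 141 (log2 difference -0.17). That gap is below 0.19, the median by which the differences of 2 probe sets of the same gene disagreed on these arrays (558 genes). No direction is therefore given for Tfpi.

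Of the plasminogen activation genes, the receptor was well above the guide in both populations. The enzyme was above the guide in c-Fmshigh cells only, and not far above it. Plaur, the urokinase receptor, stood at 527 in RANKhigh cells and 697 in c-Fmshigh cells, 1.32-fold apart (log2 difference -0.40). Plau, urokinase itself, stood at 56.4 and 99.4. The first of these was below the guide, so that Plau was at least 1.19-fold lower in RANKhigh cells. Serpinb2, the urokinase inhibitor, had the highest log2 difference of the 10 genes (just over 1, from 77.4 against 38.6), but both values were below the guide and no fold is given. In the RefSeq gene order Serpinb2 lies between Serpinb7, below the guide on both arrays (24.6 and 22.1), and Serpinb10, a myeloid serpin, which was lower in RANKhigh cells (136 against 251, 1.85-fold).

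**Figure D2:**
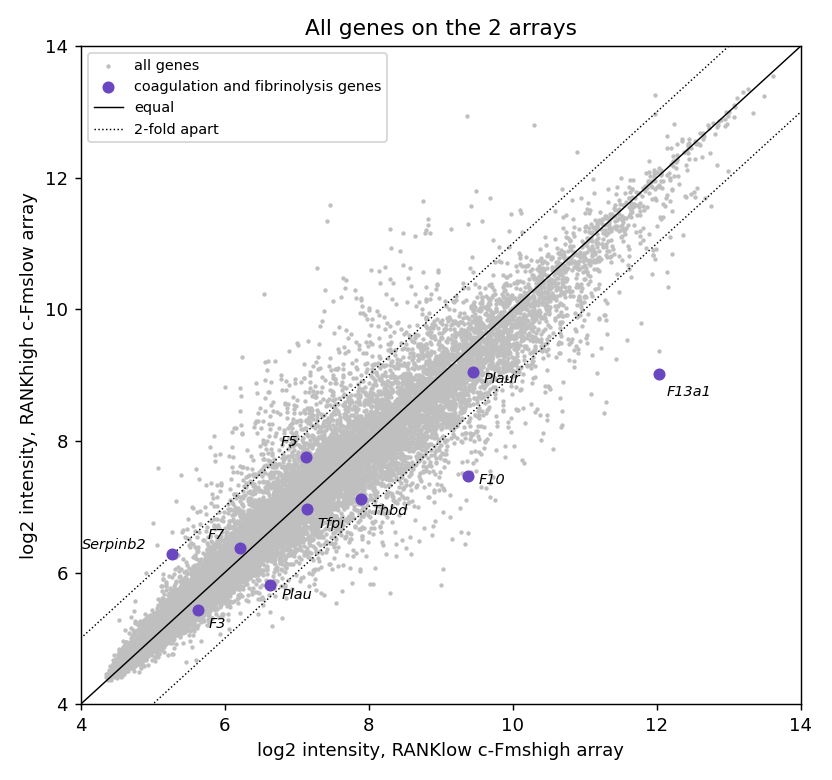
Log2 intensity of each of 19935 genes (grey points) on the RANKlow c-Fmshigh array (horizontal) and the RANKhigh c-Fmslow array (vertical), with the 10 coagulation and fibrinolysis genes in purple. The solid line marks equal values and dotted lines a 2-fold difference. F13a1 and F10 lie below the lower dotted line, and Serpinb2 lies on the upper line among genes of low intensity.

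Other genes of the same pathways were then described by list. Of 11 measured genes for the remaining coagulation factors and fibrinogen, 9 were below the guide on both arrays, among them the fibrinogen chains Fga (53.1 and 49.9), Fgb (61.6 and 60.0) and Fgg (36.0 and 33.0), and 0 were at least 2-fold apart. Only Vwf, von Willebrand factor of endothelium and platelets (115 and 106), passed the level filter. F12 (87.0 and 82.5) was just above the guide. The liver markers behaved likewise, with 8 of 9 below the guide on both arrays, from 31.3 to 91.9 over all 9, albumin (Alb) at 35.4 and 31.3 among them.

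Of 9 other anticoagulant genes, 7 were below the guide on both arrays, the protein C gene Proc among them (56.7 and 70.7). Pros1, protein S, the cofactor of activated protein C and a ligand of the TAM receptors, was the exception in size. It stood at 98.0 in RANKhigh cells and 331 in c-Fmshigh cells, a 3.37-fold difference. Serpind1, heparin cofactor II, stood at 135 and 118. Of 7 other genes of the plasminogen system 6 were below the guide on both arrays, with the tissue activator Plat at 63.1 on each and plasminogen (Plg) at 42.9 and 42.5. Lrp1, the endocytic receptor that clears urokinase bound to its inhibitors, passed the filter and was 2.55-fold lower in RANKhigh cells (120 against 305).

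The plasminogen receptor genes were all above the guide on both arrays. Among the 5 measured, RANKhigh cells were at least 2-fold lower for 2 and at least 2-fold higher for 1, and the median log2 difference was -0.72. Anxa2, which together with S100a10 forms a surface complex that binds plasminogen, stood at 524 against 2293 (4.38-fold lower). S100a10 itself stood at 1832 against 4730 (2.58-fold lower). The integrin chains Itgam and Itgb2, which pair as Mac-1, a partner of the urokinase receptor, were close to each other in log2 difference at -0.72 and -0.72 (452 against 743 and 427 against 701). Plgrkt, a membrane receptor for plasminogen, went the other way at 376 against 186, 2.02-fold higher in RANKhigh cells, but it was just under 2-fold with each array centred on its median or with 32 added to all intensities.

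Of 3 protease-activated receptor genes measured, 0 were at least 2-fold apart. F2rl2, which encodes PAR3, came nearest at 171 against 334 (1.95-fold lower in RANKhigh cells), F2r, the thrombin receptor PAR1, stood at 195 against 141, and F2rl3, PAR4, at 95.5 and 104. The genes that supply vitamin K-dependent factors, and those that carry factors V and VIII out of the endoplasmic reticulum, were all above the guide, with 0 of 5 at least 2-fold apart and a median of -0.13. Within that carrier complex Lman1 was 1.88-fold lower in RANKhigh cells (430 against 807) and its partner Mcfd2 stood at 167 and 171. Ggcx, the carboxylase that modifies the vitamin K-dependent factors, stood at 118 and 156, and Vkorc1l1 at 595 and 654.

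Among relatives of the F13a1 enzyme, 4 of the 8 other transglutaminase family genes were below the guide on both arrays. Epb42, a red cell membrane protein of this family without enzyme activity, was the 1 at least 2-fold apart, and in the direction opposite to F13a1, at 1154 against 227 (5.08-fold higher in RANKhigh cells). Tgm2, tissue transglutaminase, stood at 116 against 81.5, the latter below the guide, so that it was at least 1.41-fold higher there. Tgm3 stood at 123 and 98.6 and Tgm1 at 114 and 111. Of 14 clade B serpins related to Serpinb2, 10 were below the guide on both arrays and 1 was at least 2-fold higher in RANKhigh cells with both values above it, Serpinb1a, an inhibitor of neutrophil proteases (924 against 444, 2.08-fold). Serpinb6b was at least 1.89-fold higher (155 against 67.2, the latter below the guide). Serpinb6a stood at 129 and 99.7.

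**Figure D3:**
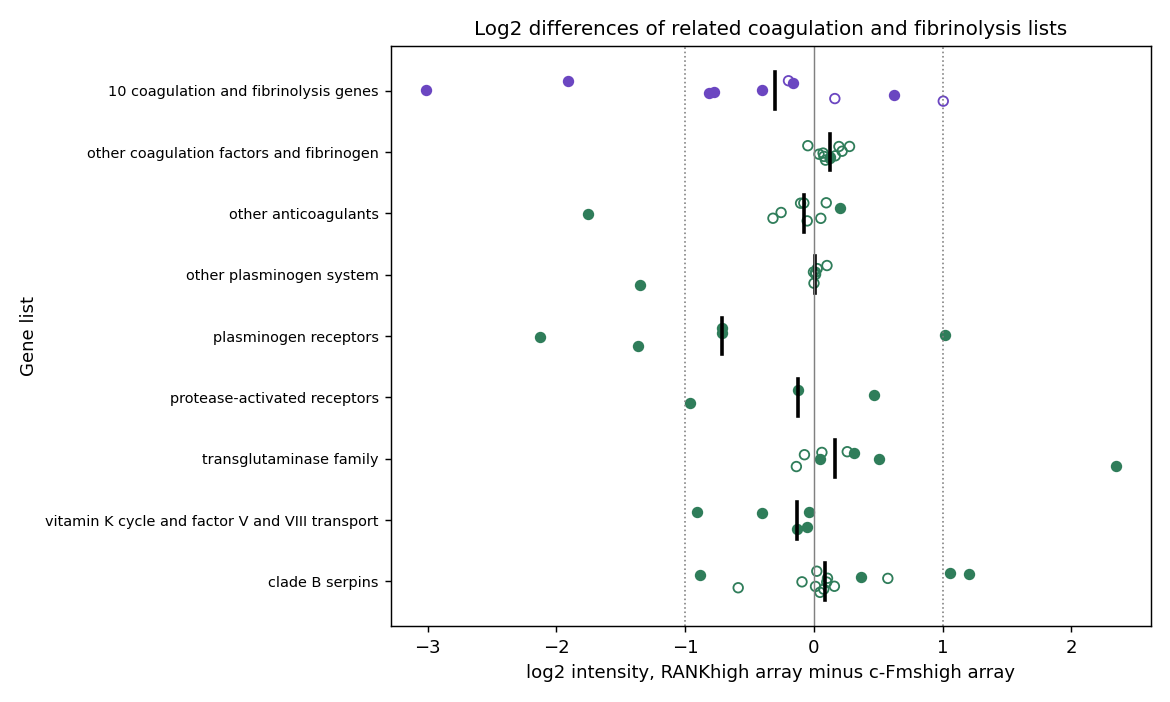
Log2 intensity difference (RANKhigh minus c-Fmshigh cells) of each gene in the 10-gene set (purple) and in 8 related lists (green). Filled points passed the level filter, open points did not, black bars are medians over all measured genes and dotted lines mark 2-fold. Most genes of the coagulation factor, anticoagulant and plasminogen lists are open points near 0, with Pros1 (-1.75) and Lrp1 (-1.35) apart on the left. Anxa2 (-2.13) and S100a10 (-1.37) of the plasminogen receptors also lie left of the 2-fold line, and Epb42 (2.35), Serpinb6b (1.20), Serpinb1a (1.06) and Plgrkt (1.02) right of it.

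Marker genes of marrow cell types differed between the populations as well. All 11 measured monocyte markers had log2 differences below 0, around a median of -1.57, and 7 were at least 2-fold lower in RANKhigh cells. Their summed intensity was 5338 against 17235, and each was above the guide in both populations. Cd14 stood at 467 against 494 (log2 difference -0.08), a gap below 0.19, the median disagreement between 2 probe sets of a gene. No direction is therefore given for Cd14. The next smallest difference was -0.24, for Klf4. The markers nearest to F13a1 in size were Ms4a6d (97.5 against 667) and Csf1r. Csf1r encodes c-Fms, on which the cells were sorted, so its direction follows the gate, and it is counted in the monocyte list. The 12 macrophage markers were divided, 3 lower by 2-fold or more in RANKhigh cells and 2 higher, around a median of 0.03. Msr1, a scavenger receptor, stood at 209 against 1119, and C1qc, a complement chain, at 457 against 152. Medians of the granulocyte, B lineage and erythroid lists lay above 0. Of 14 neutrophil markers 9 were higher by 2-fold or more in RANKhigh cells and 0 lower (median 1.69). The primary granule genes were divided, with Mpo (3026 against 4434) and Prtn3 (466 against 643) below 0 and Elane (873 against 716) above it. The same count was 6 of 8 for eosinophil (median 1.86), 10 of 11 for B lineage (1.77) and 9 of 9 for erythroid markers (2.42). The Epb42 difference stands beside the erythroid list, which holds that gene as well. Of 10 endothelial markers, the cells in which Thbd, Tfpi and Vwf are best known, 0 were at least 2-fold apart. Below the guide on both arrays were 5, with Cdh5 at 70.6 and 61.3 and Kdr at 43.5 and 50.9. The level filter was passed by 3, all with log2 differences above 0. These were Pecam1 (598 against 412), Egfl7 (147 against 127.7) and Eng (93.9 against 78.8, the latter below the guide). The part of these cell types in the values of the 10 genes was not tested.

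**Figure D4:**
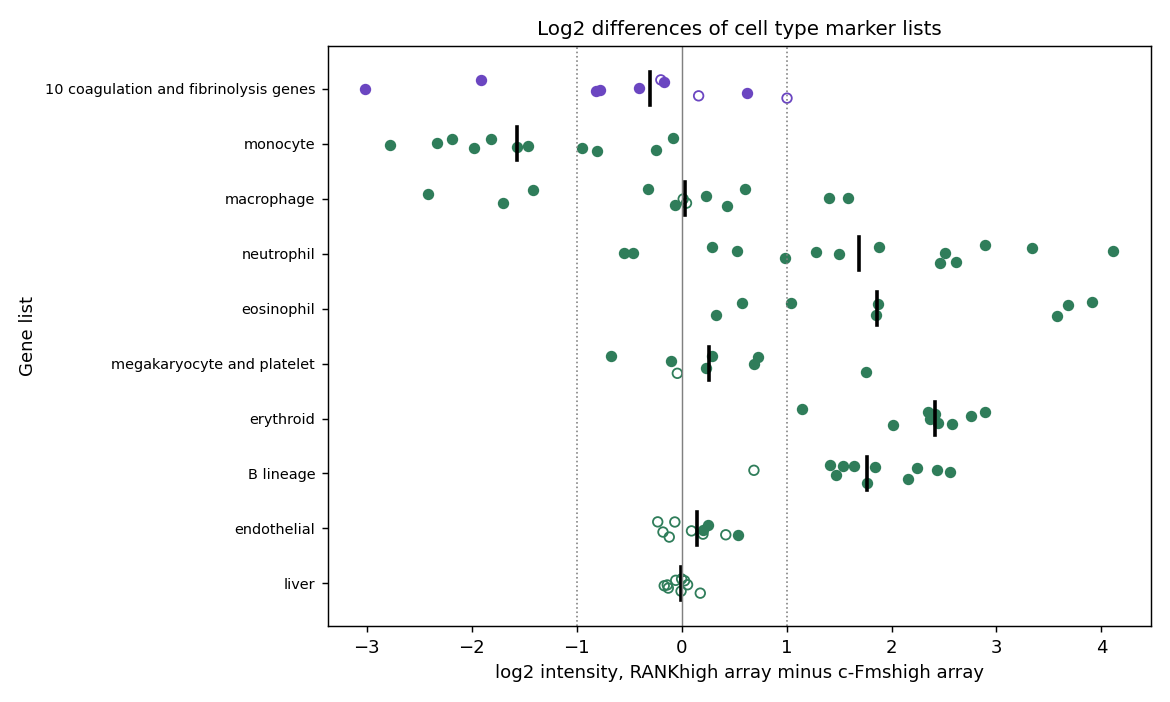
Log2 intensity difference (RANKhigh minus c-Fmshigh cells) of the 10-gene set (purple) and of 9 lists of cell type markers (green), drawn with the same symbols, bars and dotted 2-fold lines. The monocyte list (median -1.57) lies on the side of F13a1 and F10, and the medians of the neutrophil, eosinophil, erythroid and B lineage lists (1.69 to 2.42) on the other.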

How the data were processed

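Transcripts were measured on 2 arrays of 1 colour, 1 per sorted population. The authors deposited linear, normalized intensities, 1 per probe set. GCOS 1.4 and RMA are named in the submitters' processing notes, with no role, order or genome build given there. Of 28815 probe sets, 21780 named 1 gene, 1605 named several and were left aside, and the platform annotation did not list 5430. Entrez identifiers of 10 of 10 members led to the same symbol in RefSeq (GRCm38.p6). Intensities were put on the log2 scale with no pseudocount and averaged over probe sets of a gene (Python 3.11.15, pandas 2.3.3, numpy 2.4.6). The counting was tested on simulated data, as a check of the code that gives no error rate for these arrays. The analysis plan needed no change of test, since none is possible with 1 array per group. The number of arrays limits the precision.

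A fold is written "at least" where the lower value lay below the 95th percentile of receptor genes on its array. It is then the higher value over that percentile. Named are all 10 members, the sort markers, the 5 genes nearest to F13a1 (unnamed gene models left out), and of each list up to 4 genes with the largest difference above the level filter plus up to 2 of highest level. Other genes named (gene neighbours, genes below the guide given as examples, markers picked from a list) were chosen after their values were seen. Members, lists and guide were chosen with earlier results of these data known. Alternatives were the scaling of arrays, the handling of probe sets, a pseudocount, the level filter, the guide and the size threshold.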

Additional observations from a re-analysis of the deposited data

How the results depend on the processing

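The direction of F13a1 and F10 and their place past 2-fold held under the 3 alternatives of scaling and pseudocount. The 3 probe set alternatives could not move any member, since each has 1 probe set that names 1 gene. A difference was taken as moved when it shifted by at least 0.19, the median gap between 2 probe sets of a gene, and a count when it shifted over 1.5 times. Adding 32 to all intensities gave Plau -0.57 and Serpinb2 0.63. With no level filter 1 member, Serpinb2, was at least 2-fold higher in RANKhigh cells. At 1.5-fold, 4 members were lower and 1 higher, beside 12.4% and 10.5% of all filtered genes. Of 58 values for members and all genes that the probe set alternatives did not fix, 53 did not move by these measures. They include the member differences with each array centred on its median. That setting shifted every difference alike and by less than 0.19 (F13a1 from -3.01 to -3.04), so none of these could count as moved. For the other lists 5 values moved, which were counts of plasminogen receptors and clade B serpins and the eosinophil median. With the 99th percentile of receptor genes (140 and 120) as guide, Plau was at background on both arrays, the fold of Thbd became at least 1.69 and that of Tfpi at least 1.01. Pros1 was then at least 2.36-fold, Lrp1 at least 2.18-fold and Atp11a at least 1.31-fold lower. Serpinb6b was at least 1.29-fold higher. Other named genes also fell to background on both arrays by that guide, among them Tgm1, Tgm2, Tgm3, Vwf, Serpind1, F2rl3, Serpinb6a and Eng. No paired analysis was possible because each group has 1 array. Each member rests on 1 probe set and 1 array per population, and signal near the guide limits F3, F7, Plau and Serpinb2.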

Other observations

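Annexins bind the phosphatidylserine surface on which coagulation complexes assemble. This family and the list that follows were looked at after Anxa5 and Anxa2 had been seen among the genes above. Of 12 annexin genes, 7 passed the level filter, and the median log2 difference of the 12 was -0.35. In RANKhigh cells 3 were lower by 2-fold or more and 0 higher, beside 4.26% and 4.34% of all filtered genes. Because Anxa2 and Anxa5 had been seen first, nothing is read from this count. Anxa2 and Anxa5 were joined by Anxa4 (253 against 786, 3.11-fold lower). Anxa3 (655 against 916), Anxa6 (252 against 431) and Anxa7 (153 against 245) were lower by less than 2-fold. Anxa1, which neutrophils carry in quantity, went the other way at 2774 against 1711. Anxa8, Anxa9, Anxa10 and Anxa13 were below the receptor-gene guide on both arrays.

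A list was drawn up for the exposure of phosphatidylserine and its return to the inner leaflet. The Plscr genes were included for their name only, and no such function is claimed for them. Of the 11 genes measured, 1 was at least 2-fold lower in RANKhigh cells and 0 at least 2-fold higher (median -0.06). That gene was Atp11a, a flippase (83.8 against 183), which lies near F10 in the gene order. The lower of these values was level with the guide of its array, and with the 99th percentile guide the fold was at least 1.31. The scramblase gene Ano6, needed for the procoagulant response of platelets, stood at 359 against 570. Plscr1 was higher in RANKhigh cells at 196 against 112. Tmem30a, the shared flippase subunit, stood at 458 and 600.4.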
